A study of Mus musculus with 14 samples.

Results

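The chromatin around Meis1, Pbx2, Pbx3 and Pknox1, 4 mouse genes for cofactors of HOX proteins, is described here from ATAC-seq (an assay in which a transposase cuts and tags open DNA, so that more reads mean more open chromatin). A region belongs to the set if its mean deposited value over all libraries is at least 50 and it overlaps the RefSeq bounds of a member gene extended by 50 kb on both sides (build mm10). By this rule 51 of 59189 regions with such a mean were members, 25 at Meis1, 14 at Pbx2, 6 at Pbx3 and 6 at Pknox1. The windows hold 346 regions in all, so most fell under the minimum. The weakest member had a mean value of 50.4 and the strongest region left out had 49.1. In 43 of the 51 the mean was at least 50 in each cell type alone, in 5 it reached 50 in MPP3 only and in 3 in LT-HSC only. Of the 51, 24 lie in their gene or within 1 kb of it and are called its own regions, and 27 are flanking regions, most of them in or near other genes.

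MEIS, PBX and PKNOX proteins are homeodomain factors of the TALE class. PBX proteins bind DNA together with a MEIS or PKNOX partner, and such complexes join HOX proteins and sharpen which sites these bind. In blood, Meis1 acts with Hoxa9 in the upkeep of haematopoietic stem cells, and both are highly expressed in acute myeloid leukaemia with mutant NPM1.

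All libraries came from C57BL/6J mice, from marrow sorted for LT-HSC (long-term haematopoietic stem cells) or MPP3 (myeloid-biased multipotent progenitors). Each cell type was taken from 4 donor genotypes. They are Dnmt3a-flR878H/+ (a hotspot change of a DNA methyltransferase, called Dnmt3a here), Npm1-frt/+ (titled Npm1c, the leukaemia-type change of nucleophosmin, called Npm1 here), Dnmt3a-flR878H/+;Npm1-frt/+ (called Dnmt3a;Npm1) and WT (Mx-Cre). Whole marrow of young donors had been put into lethally irradiated CD45.1 recipients. Every recipient, WT groups included, was then given poly(I:C), tamoxifen and a wait before harvest, each step 4 weeks after the last. Mx-Cre is driven by an interferon-inducible promoter that poly(I:C) switches on, so WT donor cells also carried the recombinase. The series asks how the Dnmt3a and Npm1 mutations act together between clonal haematopoiesis and myeloid malignancy.

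The 7 MPP3 libraries comprise 2 of Dnmt3a, 2 of Npm1, 1 of Dnmt3a;Npm1 and 2 of WT, and the 7 LT-HSC libraries comprise 1 of Dnmt3a, 2 of Npm1, 2 of Dnmt3a;Npm1 and 2 of WT. Replicates carry the letters A and B. The labels do not give the animals behind them, and the spread that p-values rest on may therefore be technical. The totals of the deposited signal were 14683769 to 28748205 per library, and the share of it lying in tested regions was 31.8% to 63.1% in MPP3 and 25.5% to 56.5% in LT-HSC. Of the 14, LT-HSC Npm1 A and B stood lowest, at 29.4% and 25.5%. The summed normalized signal at 12 of 12 marker genes of MPP3 was 4862 to 6814 in MPP3 and 3134 to 5389 in LT-HSC, and at 11 of 12 marker genes of LT-HSC it was 6076 to 6846 in MPP3 and 6375 to 8148 in LT-HSC. At lymphoid markers (8 of 12 with a tested region) it was 3468 to 5257 in MPP3 and 4442 to 6597 in LT-HSC, and at megakaryocyte markers (7 of 8) 2498 to 3674 in MPP3 and 2658 to 4249 in LT-HSC. At erythroid markers (7 of 10) it was 1528 to 2055 in MPP3 and 1300.3 to 2247 in LT-HSC, at niche markers (7 of 8) 4417 to 6555 in MPP3 and 4133 to 5838 in LT-HSC, and at mast cell, basophil and eosinophil markers (2 of 9) 645 to 1043 in MPP3 and 566 to 1090 in LT-HSC. In bulk libraries, fewer cells of a type and less signal per cell cannot be told apart.

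Promoters in 4 of the regions described below are shown here so that the values can be read against them. Each is the 250 bases before a transcription start listed by RefSeq on GRCm38.p6, the assembly that mm10 names. Meis1 (chr11:19018970-19019219, minus strand) and Pbx2 (chr17:34592009-34592258, plus strand) are promoters of members, and Pbx3 and Pknox1 are named only. Agpat1 (chr17:34605611-34605860, plus strand) and Mapkap1 (chr2:34406601-34406850, plus strand) are promoters of other genes inside flanking regions that passed the test. Capitals mark short motifs found by letter match on either strand.
Meis1: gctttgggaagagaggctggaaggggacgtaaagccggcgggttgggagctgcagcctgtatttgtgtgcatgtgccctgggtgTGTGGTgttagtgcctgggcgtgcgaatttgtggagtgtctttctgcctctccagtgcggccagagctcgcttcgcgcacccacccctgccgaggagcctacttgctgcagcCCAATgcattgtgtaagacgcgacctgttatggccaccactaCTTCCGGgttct
Pbx2: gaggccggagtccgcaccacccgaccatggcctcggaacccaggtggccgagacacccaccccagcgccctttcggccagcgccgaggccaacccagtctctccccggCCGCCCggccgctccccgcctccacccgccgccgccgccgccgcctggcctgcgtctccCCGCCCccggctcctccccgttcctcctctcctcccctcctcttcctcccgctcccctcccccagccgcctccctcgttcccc
Agpat1: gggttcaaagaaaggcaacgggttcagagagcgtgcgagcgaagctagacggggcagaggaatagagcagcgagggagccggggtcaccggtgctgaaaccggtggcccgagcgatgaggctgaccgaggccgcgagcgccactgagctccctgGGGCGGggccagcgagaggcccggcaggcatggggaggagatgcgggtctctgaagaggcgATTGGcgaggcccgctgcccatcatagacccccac
Mapkap1: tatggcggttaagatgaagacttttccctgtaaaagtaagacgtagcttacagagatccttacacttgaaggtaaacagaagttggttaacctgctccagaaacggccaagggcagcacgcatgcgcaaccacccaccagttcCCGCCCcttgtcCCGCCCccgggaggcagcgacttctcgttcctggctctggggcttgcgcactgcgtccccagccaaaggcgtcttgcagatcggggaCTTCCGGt
The motifs searched were TGATTTAT for HOX with PBX, TGACAG for MEIS, TGATTGAC for PBX with PKNOX, AGATAA for the GATA family, TGTGGT for RUNX, CCGGAAG for ETS, GGGCGG for SP and KLF, CCAAT for NF-Y, CACGTG for the E-box and TATAAA for the TATA box, and none of the marked matches overlap. The Meis1 promoter held TGTGGT starting 166 bases, CCAAT 54 bases and CCGGAAG on the opposite strand 12 bases before the listed start. Of 32851 mouse promoters of the same length, 14% held TGTGGT, 33.8% held CCAAT and 6.91% held CCGGAAG. The Pbx2 promoter, 77.6% G and C, held GGGCGG at 142 and 83 bases, and GGGCGG occurs in 32.7% of promoters. The Agpat1 promoter held GGGCGG at 96 and CCAAT at 35 bases, and that of Mapkap1 held GGGCGG at 107 and 95 bases and CCGGAAG at 8. None of the 4 windows held TGATTTAT, TGACAG or TGATTGAC, which 0.837%, 15.9% and 0.691% of all promoters hold. The longer RefSeq bound of Meis1 (chr11:18880428-19019651) reaches upstream of the window shown.

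At each member gene the strongest own region covered a gene end, and none of these 4 regions differed between the cell types or between a mutant and WT past the threshold in any of 16 comparisons. Values below are deposited values divided by a library factor (TMM, a trimmed mean of ratios), without length correction unless given per kb. Differences are log2 differences of value plus 4 from limma with standard errors, and a region is called at a Benjamini-Hochberg adjusted p under 0.05 over all 59189 tested regions. Per kb, Pknox1 was the most open at 280 normalized units, Meis1 had 192, Pbx3 186 and Pbx2 140.

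The lead region of Meis1 (chr11:19018286-19021228, 2943 bp) spans the shown promoter and overlaps the RNA gene Gm16141. Its lowest, median and highest values were 476, 622 and 776 in the 7 MPP3 libraries, and 338, 549 and 719.6 in the 7 LT-HSC libraries. The ranges largely overlapped, with means of 607 ± 106 in MPP3 and 522 ± 123 in LT-HSC (SD, n = 7 each). The difference of 0.22 (SE 0.19) had an adjusted p of 0.662 in limma. By group, from high to low, the order was MPP3 Dnmt3a (699 ± 109), LT-HSC WT (642 ± 110), the lone MPP3 Dnmt3a;Npm1 library (623), MPP3 WT (592 ± 140.0), the lone LT-HSC Dnmt3a library (569), MPP3 Npm1 (523 ± 65.9), LT-HSC Dnmt3a;Npm1 (480.0 ± 98.3) and LT-HSC Npm1 (421 ± 118). All 7 gaps between neighbours in that order were within the larger of the replicate SDs.

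The lead region of Pbx2 (chr17:34591029-34593561, 2533 bp), which also overlaps Gpsm3, ran over 235, 368 and 503 in MPP3 and 262, 313 and 442 in LT-HSC (lowest, median, highest). That of Pbx3 (chr2:34370893-34373754, 2862 bp) ran over 294, 567 and 748 in MPP3 and 312, 533 and 753 in LT-HSC. That of Pknox1 (chr17:31563632-31566260, 2629 bp) ran over 442, 775 and 1027 in MPP3 and 318, 600.2 and 1084 in LT-HSC. The cell types overlapped over most of their range at each of these regions. Their differences were 0.00 (SE 0.22), 0.07 (SE 0.21) and 0.08 (SE 0.20) for Pbx2, Pbx3 and Pknox1, with adjusted p of 1.00, 0.923 and 0.897 in limma. In MPP3 Dnmt3a libraries the Pbx3 region had 294 and 748 and that of Pbx2 had 503 and 235, so replicates of 1 group lay far apart. Without both LT-HSC Npm1 libraries, an alternative chosen after the data were seen, the signs at Pbx2, Pbx3 and Pknox1 turned to -0.09, -0.20 and -0.25.

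At Pbx2 the lone LT-HSC Dnmt3a library was highest (433), and the means of LT-HSC Dnmt3a;Npm1, MPP3 WT, MPP3 Dnmt3a, MPP3 Dnmt3a;Npm1, LT-HSC WT and MPP3 Npm1 followed between 377 ± 91.3 and 339 ± 58.4. Only the last step, of 65.8 down to LT-HSC Npm1 (273 ± 16.2), was larger than the replicate SDs beside it. At Pbx3 the lone LT-HSC Dnmt3a library stood 168 above MPP3 Npm1 (585 ± 32.7), more than the SD there. MPP3 Dnmt3a;Npm1, MPP3 WT, LT-HSC Dnmt3a;Npm1, LT-HSC WT and MPP3 Dnmt3a followed between 567 and 521 ± 321, and LT-HSC Npm1 had 313 ± 1.71. At Pknox1 the order began with the LT-HSC Dnmt3a library (976), MPP3 Npm1 (901 ± 178), MPP3 WT (870.0 ± 221) and LT-HSC WT (833 ± 354). MPP3 Dnmt3a;Npm1 (795) and LT-HSC Dnmt3a;Npm1 (746 ± 207) were next, and a gap of 259, larger than the SDs beside it, led to MPP3 Dnmt3a (487 ± 64.2) and LT-HSC Npm1 (423 ± 149). Neighbours other than those named did not differ beyond their spread.

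LT-HSC Npm1 was the lowest of the 8 groups at all 4 lead regions, at 12 of the 19 members within 1 kb of a coding gene end and at 18 of all 51. The same held for 47.2% of all 16876 tested gene-end regions and 25.1% of all tested regions, so this low rank was common near gene ends throughout. At Pknox1 its libraries had 528 and 318, against 1084 and 583 in LT-HSC WT. At Pbx3 they had 314 and 312, against 559.7 and 533 in LT-HSC WT. At Meis1 they had 505 and 338, against 719.6 and 564 in LT-HSC WT, and at Pbx2 they had 262 and 284, against 418 and 299 in LT-HSC WT. At each of the 4, both Npm1 libraries lay below both WT libraries of LT-HSC, as at 12 of the 19 gene-end members, 49.2% of all gene-end regions and 28.6% of all tested regions. The log2 differences were -0.95 (SE 0.37, adjusted p 0.119) at Pknox1, -0.79 (SE 0.38, 0.209) at Pbx3, -0.62 (SE 0.34, 0.276) at Meis1 and -0.37 (SE 0.39, 0.607) at Pbx2 in limma, so none passed. With cyclic loess scaling these signs flipped at all 4, to 0.19, 0.21, 0.42 and 0.46, and at Pbx2 the sign also flipped to 0.17 with a minimum mean of 100. Scaled to the library total the Pknox1 difference was -1.56 and passed (limma adjusted p 0.0369, with 0.0369 to 0.948 over its 25 alternatives).

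**Figure D1:**
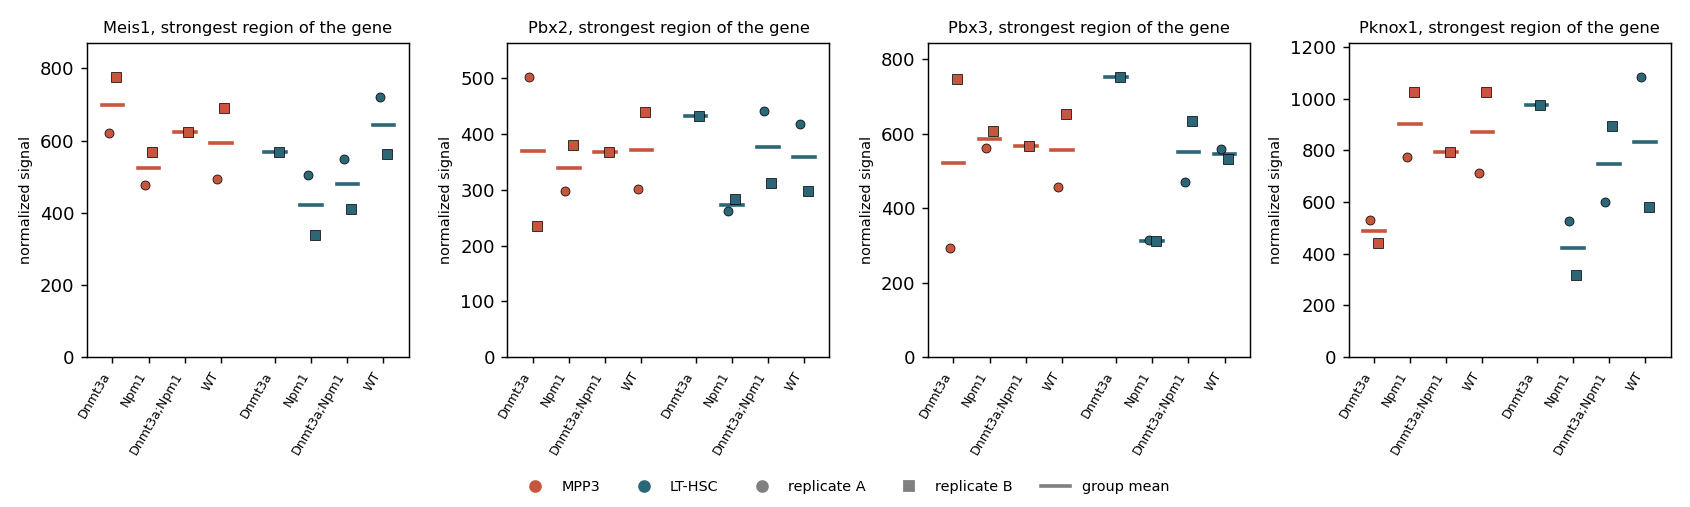
Normalized signal of the strongest region at Meis1, Pbx2, Pbx3 and Pknox1 in each of the 14 libraries, by cell type and genotype, with bars at group means. At all 4 genes the LT-HSC Npm1 group is the lowest, and the libraries of most other groups overlap.

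The share of a library's signal that lay in tested regions moved with the lead regions. Over the 14 libraries, Pearson's r between log signal and that share was 0.88 at the Pknox1 lead region, 0.70 at Pbx3, 0.53 at Meis1 and 0.50 at Pbx2. Its median was 0.69 over the 19 members within 1 kb of a coding gene end, 0.05 over the other 32 members and 0.01 over all tested regions. No median was computed over all tested gene-end regions, so 0.69 has no like-for-like background here. These are descriptions over libraries that share depth and preparation, and the part of this share in the values of these regions was not tested.

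**Figure D2:**
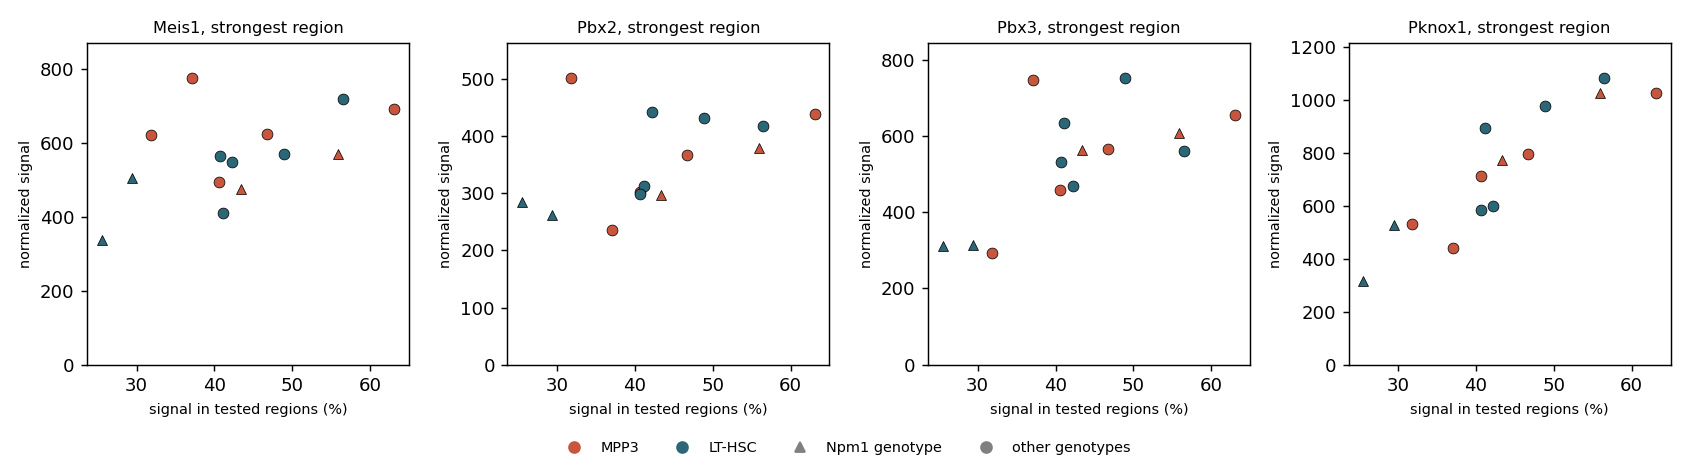
Normalized signal of the 4 lead regions (vertical) against the percent of each library's deposited signal in tested regions (horizontal), 1 point per library, with triangles for the Npm1 genotype. The 2 LT-HSC Npm1 libraries lie at the left, at 29.4% and 25.5%.

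Between MPP3 and LT-HSC, averaged over the 4 genotypes, the MPP3 libraries were more open at a single member region, 42061 bp from Pbx2 and in no gene. Of all 51 members 1 was higher and 0 were lower, against 0.139% of all tested regions called in this comparison, 0.112% higher and 0.027% lower. The region (chr17:34639461-34640109, 649 bp) lies between Ppt2, a thioesterase gene, and Fkbpl, an immunophilin-like gene, 1439 bp from the end of Ppt2. Its lowest, median and highest values were 114, 160.4 and 214 in MPP3, and 24.5, 34.7 and 106 in LT-HSC. All 7 MPP3 libraries lay above all 7 LT-HSC libraries, which held for 0.441% of tested regions. Its mean deposited value was 188 in MPP3 and 40.9 in LT-HSC, so the region reached the minimum of 50 only through MPP3. A member that enters in this way had to differ, and its call and the lack of overlap are descriptions that support nothing about the 4 genes. The highest LT-HSC values, 106 and 59.3, were those of the Npm1 libraries.

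Means were 165 ± 38.5 in MPP3 and 45.8 ± 28.8 in LT-HSC (SD, n = 7 each), a log2 difference of 1.85 (SE 0.29, adjusted p 0.0146 in limma). Because the region reached the minimum only through MPP3, this difference and its alternatives below are descriptions too. Within genotypes the difference was 2.27 in Dnmt3a, 1.10 in Npm1, 1.89 in Dnmt3a;Npm1 and 2.13 in WT, none called on its own (limma adjusted p 0.421, 0.202, 1.00 and 0.327). Over 23 alternatives it ran from 1.59 to 2.11 with adjusted p of 0.00239 to 0.107, and it was called in 18. The call was lost without MPP3 WT A (adjusted p 0.0538), MPP3 WT B (0.107), MPP3 Npm1 A (0.0514) or MPP3 Npm1 B (0.0897) in limma, and with the share of signal in tested regions as a covariate (0.0609). Without both LT-HSC Npm1 libraries, an alternative chosen after the data were seen, it was 2.11 (SE 0.34, limma adjusted p 0.0471). The MPP3 marker sum given above is also higher in MPP3. Mpo, the gene of the granule enzyme myeloperoxidase, had a region higher by 1.52 (SE 0.22, limma adjusted p 0.0114). It was the only called region of the 36 at MPP3 markers. None of the 54 at LT-HSC markers and none of the other marker lists was called in this comparison. Whether the shares of cells within the sorts set the difference at the region between Ppt2 and Fkbpl was not tested.

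Over all 51 members the median log2 difference between cell types was 0.01, beside 0.03 over all tested regions, with 27 above 0. At an unadjusted p under 0.05 there were 3 members, against 12.5% of tested regions. In no genotype alone other than Npm1 was a member called (limma, 0 of 51 each), nor was any tested region (0%). At an unadjusted p under 0.05 there were 1 member in WT, 7 in Dnmt3a and 1 in Dnmt3a;Npm1, against 5.33%, 8.31% and 3.49% of tested regions.

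In the Npm1 genotype the MPP3 libraries were more open than the LT-HSC libraries at 3 members, 1 inside Meis1, 1 at the promoter of Agpat1 in the Pbx2 window and 1 at the promoter of Mapkap1 in the Pbx3 window. No member was lower. In this comparison 6.62% of tested regions were called, 5.82% higher and 0.799% lower, so 3 of 51 is near the background. In LT-HSC, Npm1 libraries were less open than WT libraries at the first 2 of these regions, and 0 members were more open, where 5.91% of tested regions were called, 4.52% lower and 1.4% higher. These comparisons share both LT-HSC Npm1 libraries, so their values are given side by side and are not independent of each other.

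Some marker regions of several cell types were also called in these comparisons. For MPP3 minus LT-HSC in Npm1, 5.82% of all tested regions were higher and 0.799% lower. For Npm1 minus WT in LT-HSC, 4.52% were lower and 1.4% higher. The marker calls are to be read against these shares. With the share of signal in tested regions as a covariate, 0 tested regions were called in either comparison, so these calls were lost. Between MPP3 and LT-HSC in Npm1, 2 of 36 MPP3 marker regions (Elane, 2.15, and Mpo, 1.42), 1 of 54 LT-HSC marker regions (Mllt3, 1.17), 1 of 50 lymphoid (Gata3, 1.57), 1 of 8 mast cell, basophil and eosinophil (Mitf, 1.29) and 2 of 46 niche regions (both Runx2) were higher. Of the lymphoid regions 2 were lower, both at Pax5 (-2.03 and -1.66), and none of the 11 erythroid or 24 megakaryocyte regions was called. Npm1 minus WT in LT-HSC was higher at 1 MPP3 marker region (Irf8, 2.89, SE 0.81, limma adjusted p 0.0392) and 1 of the mast cell list (Hdc, 2.17, SE 0.52, limma adjusted p 0.0229). It was lower at 2 LT-HSC marker regions (Mllt3, -1.21, and Hlf, -1.15), 2 at Gata3 (-1.62 and -1.57), 2 at Runx2 (-1.40 and -1.20), 1 at Tfrc of the erythroid list (-1.17) and 1 at Gp9 of the megakaryocyte list (-1.63).

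The summed MPP3 marker signal was 6814 and 6340.3 in MPP3 Npm1. It was 5389 and 4782 in LT-HSC Npm1, against 3134 and 3929 in LT-HSC WT. At LT-HSC markers it was 6076 and 6472 in MPP3 Npm1, then 6914 and 6375 in LT-HSC Npm1, against 7850 and 8148 in LT-HSC WT, and at megakaryocyte markers 2498 and 2819 in MPP3 Npm1, 2665 and 2658 in LT-HSC Npm1, against 4073 and 4249 in LT-HSC WT. The sums of LT-HSC Npm1 thus lay above those of LT-HSC WT for MPP3 markers and below them for LT-HSC and megakaryocyte markers. At erythroid markers the sums were 1905 and 1539 in LT-HSC Npm1, against 2247 and 1886 in LT-HSC WT, at lymphoid markers 5844 and 5550 against 4635 and 6597, at niche markers 4803 and 4501 against 4133 and 5838, and at mast cell, basophil and eosinophil markers 847 and 713 against 728 and 566. The part of the cell types within the sorts in the members' differences was not tested.

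The region inside Meis1 (chr11:18924563-18925490, 928 bp) lies 44135 bp from the nearer bound of the gene, and the annotation used here does not say whether it is intronic. In the Npm1 genotype it had 282 and 299.6 in MPP3, and 114 and 53.3 in LT-HSC. WT libraries had 209.8 and 343 in MPP3, and 284 and 188 in LT-HSC. Both LT-HSC Npm1 libraries lay below the other 12, of which the lowest was 171 (MPP3 Dnmt3a B). The share of tested regions where this held was not computed. At 28.6% of all tested regions both lay below both LT-HSC WT libraries. The Dnmt3a;Npm1 libraries of LT-HSC, which carry the same Npm1 allele, had 238 and 304.

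MPP3 Npm1 averaged 291 ± 12.3 and LT-HSC Npm1 83.8 ± 43.0 (SD, n = 2 each), a difference of 1.84 (SE 0.41, limma adjusted p 0.0152). Against the LT-HSC WT mean of 236 ± 68.5 LT-HSC Npm1 was lower, with a log2 difference of -1.51 (SE 0.41, limma adjusted p 0.0353). In MPP3, Npm1 minus WT was 0.11 (SE 0.41, limma adjusted p 1.00), and the test of the difference between the Npm1 effects of the cell types gave 1.63 (SE 0.58, adjusted p 0.331), so a difference between cell types was not shown. In LT-HSC, Dnmt3a;Npm1 minus WT was 0.21 (SE 0.41, adjusted p 0.950 in limma). Over 25 alternatives the cell type difference ran from 1.17 to 2.80 (adjusted p 0.00246 to 1.00, called in 19) and that of Npm1 against WT from -2.63 to -0.87 (0.00934 to 0.792, called in 15). Without LT-HSC Npm1 B they were 1.32 (adjusted p 0.168) and -0.99 (0.303) in limma.

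The region over the start of Agpat1, an enzyme gene of phospholipid synthesis, which also overlaps Rnf5, a ubiquitin ligase gene, was the strongest of all members (chr17:34602825-34606929, 4105 bp, 5425 bp from Pbx2). It holds the Agpat1 promoter shown above. In the Npm1 genotype it had 1095 and 1455 in MPP3, and 546 and 444 in LT-HSC, and LT-HSC WT had 1152 and 1100.2. Both LT-HSC Npm1 libraries were below the other 12, whose lowest was 823 (MPP3 Dnmt3a A). The share of tested regions where this held was not computed. At 49.2% of all tested gene-end regions both lay below both LT-HSC WT libraries. The LT-HSC Dnmt3a;Npm1 libraries, at 1478 and 2036, were among the highest.

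MPP3 Npm1 averaged 1275 ± 254 and LT-HSC Npm1 495 ± 72.0 (SD, n = 2 each), a difference of 1.35 (SE 0.31, limma adjusted p 0.0163). Npm1 minus WT in LT-HSC was -1.19 (SE 0.31, limma adjusted p 0.0302), against a WT mean of 1126 ± 36.9. In MPP3 it was -0.16 (limma adjusted p 1.00), and the difference between the cell types' Npm1 effects was 1.03 (SE 0.44, adjusted p 0.394). With cyclic loess scaling the cell type difference was -0.14 (adjusted p 0.749) and Npm1 minus WT in LT-HSC 0.14 (0.761), both with the sign turned. Over 25 alternatives the cell type difference ranged up to 2.36 (adjusted p 0.00711 to 1.00, called in 19) and Npm1 minus WT down to -2.35 (0.0159 to 0.761, called in 18).

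The region over the start of Mapkap1, which encodes a subunit of the kinase complex mTORC2, lies 34453 bp from Pbx3 (chr2:34406498-34407424, 927 bp). In the Npm1 genotype it had 274 and 307 in MPP3, and 46.3 and 128 in LT-HSC. LT-HSC WT had 253 and 266, and MPP3 WT had 156 and 309.8. LT-HSC Npm1 A was the lowest of the 14 libraries, but LT-HSC Npm1 B lay above MPP3 Dnmt3a A (96.5). MPP3 Npm1 averaged 290.5 ± 24.0 and LT-HSC Npm1 87.4 ± 58.0 (SD, n = 2 each), a difference of 1.85 (SE 0.51, limma adjusted p 0.0333). Npm1 minus WT in LT-HSC was -1.69 (SE 0.51) and missed the threshold (limma adjusted p 0.0506). The Npm1 effects of the cell types differed by 2.08 (SE 0.72, adjusted p 0.329). Over 25 alternatives the cell type difference ran from 1.15 to 2.81 (adjusted p 0.00327 to 1.00, called in 16), and without LT-HSC Npm1 A it was 1.15 (limma adjusted p 0.328).

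**Figure D3:**
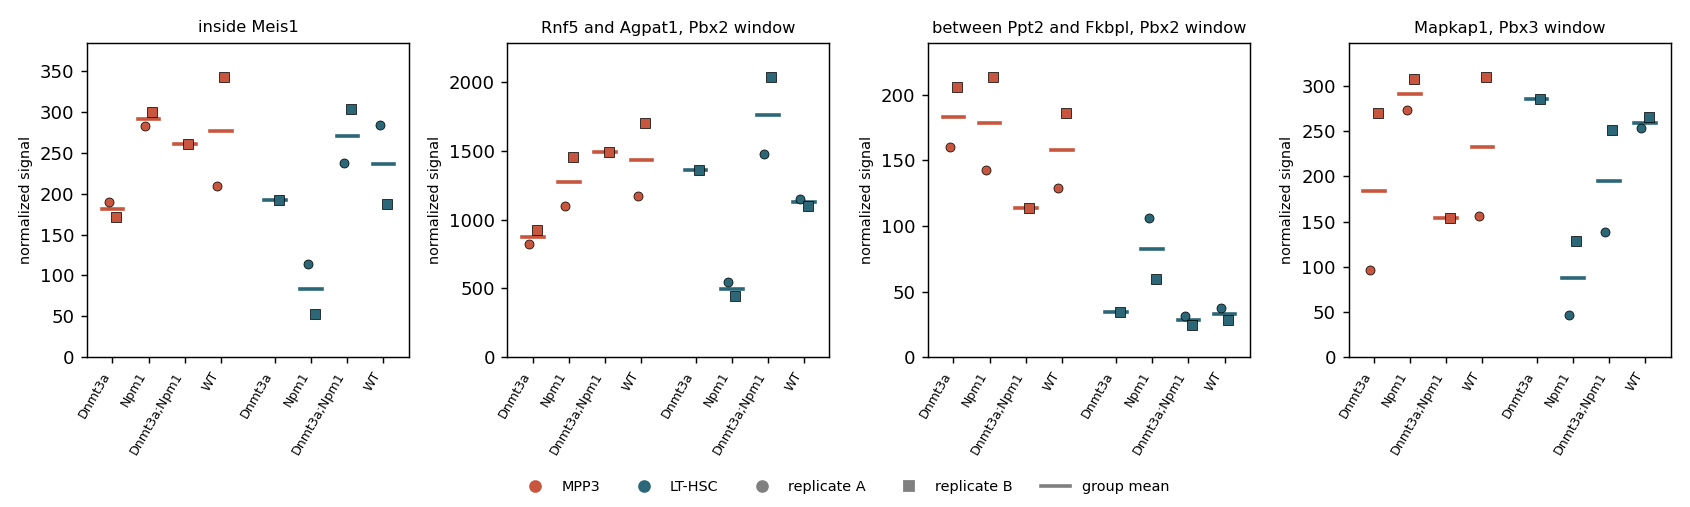
Normalized signal per library at the member regions that passed the test in a comparison: inside Meis1, at Rnf5 and Agpat1, between Ppt2 and Fkbpl, and at Mapkap1. Circles are replicate A, squares replicate B and bars group means. LT-HSC Npm1 lies lowest inside Meis1 and at Rnf5 and Agpat1, and all MPP3 libraries lie above all LT-HSC libraries between Ppt2 and Fkbpl.

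Members near gene ends were set beside those elsewhere. In LT-HSC, Npm1 minus WT had a median of -0.62 over the 19 members near a coding gene end and 0.02 over the other 32. Over all 16876 tested gene-end regions the same median was -0.50, and over the 42313 elsewhere 0.19. MPP3 minus LT-HSC in the Npm1 genotype had medians of 0.50 near a gene end and 0.05 elsewhere for the members, and 0.48 and -0.14 for all tested regions. The medians of the members lay on the same side as those of the table near gene ends. Of the 19 near a gene end, 2 were higher in MPP3 Npm1 than in LT-HSC Npm1 and 1 was lower in LT-HSC Npm1 than in WT, where 15.2% and 11.4% of all tested gene-end regions were called in those directions. Per gene, Npm1 minus WT in LT-HSC had medians of -0.06 at Meis1, -0.36 at Pbx2, -0.73 at Pbx3 and -0.10 at Pknox1. Over all 51 members it was -0.28 beside 0.01 in the table, but cyclic loess made the members' median 0.04 and library totals -0.84, where the median of all regions was -0.57. Of the 51, 10 had an unadjusted p under 0.05 for MPP3 minus LT-HSC in Npm1 and 11 for Npm1 minus WT in LT-HSC, against 23.9% and 23.3% of tested regions.

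**Figure D4:**
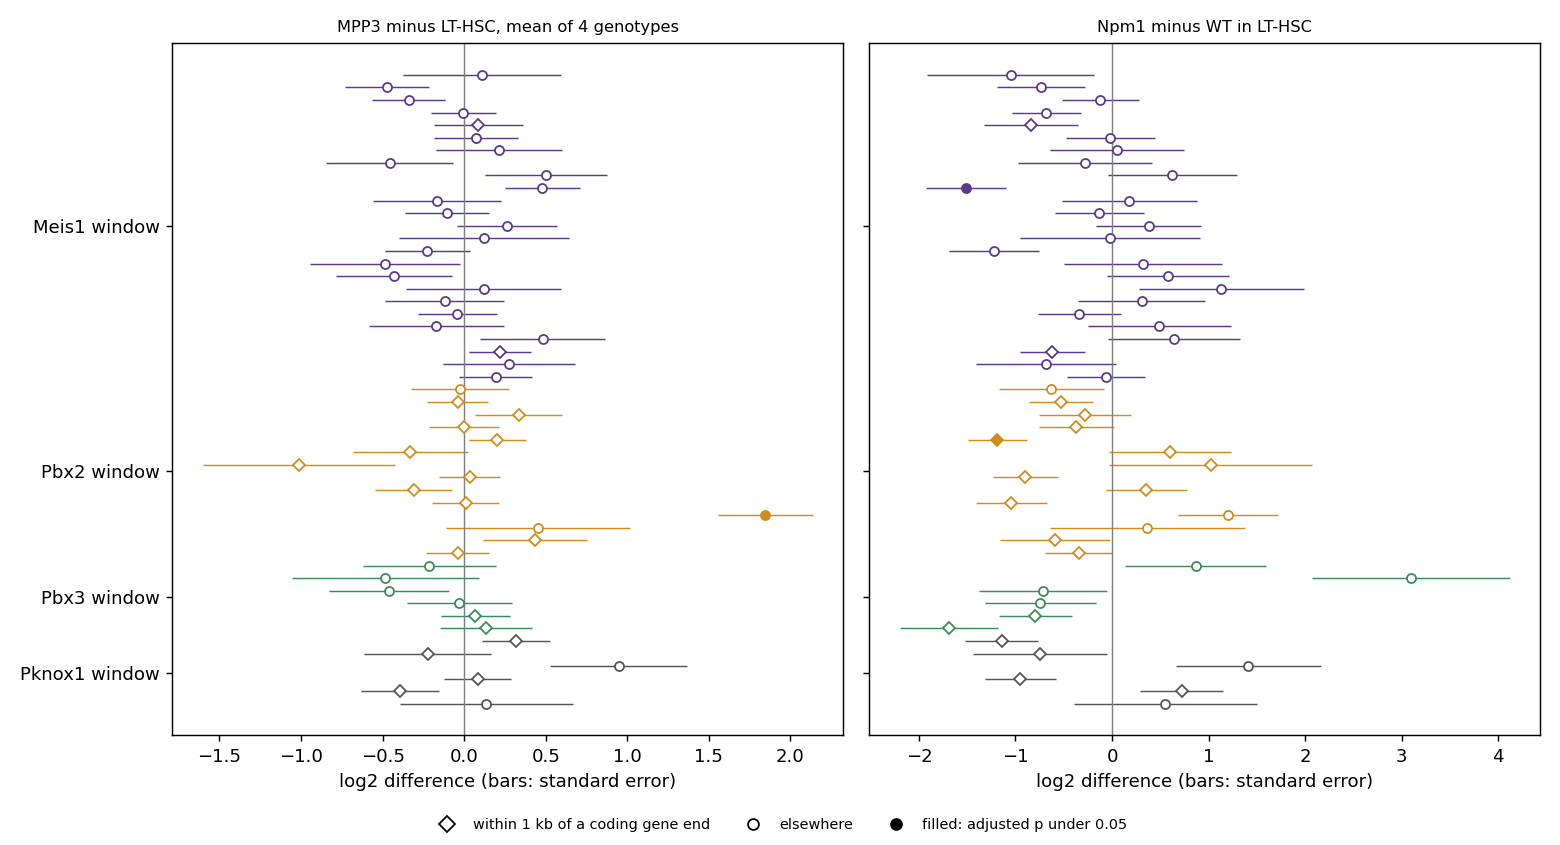
Log2 differences of the 51 member regions by gene, for MPP3 minus LT-HSC over the 4 genotypes (left) and Npm1 minus WT in LT-HSC (right). Diamonds are regions within 1 kb of a coding gene end and filled symbols are called. On the right, gene-end members sit mostly below 0, with a median of -0.62.

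Meis1 had the most member regions of the 4 genes, 19 of its own and 6 flanking, along its 139224 bp. Pbx3, the longest at 200589 bp, had 3 of its own. Pbx2 (5142 bp) and Pknox1 (42972 bp) each had 1 own region, at a gene end. Before the minimum mean of 50, the window of Meis1 held 112 regions and that of Pbx3 held 117. The second strongest region at Meis1 was flanking, in the RNA gene 8430419K02Rik downstream of it (chr11:18876197-18878376), at 417 ± 59.0 in MPP3 and 409 ± 146 in LT-HSC (SD, n = 7 each). An own region (chr11:18969752-18970755) had 189 ± 72.5 in MPP3 and 235 ± 85.4 in LT-HSC (SD, n = 7 each). In LT-HSC its Npm1 libraries had 235 and 67.2, against 348 and 259.7 in WT, a difference of -1.23 (SE 0.46) that did not pass (limma adjusted p 0.112). Both Npm1 libraries were lower than both WT libraries there, as at 28.6% of all tested regions. Of the 19 own regions of Meis1, only the one described above was called in any of the 16 comparisons.

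**Figure D5:**
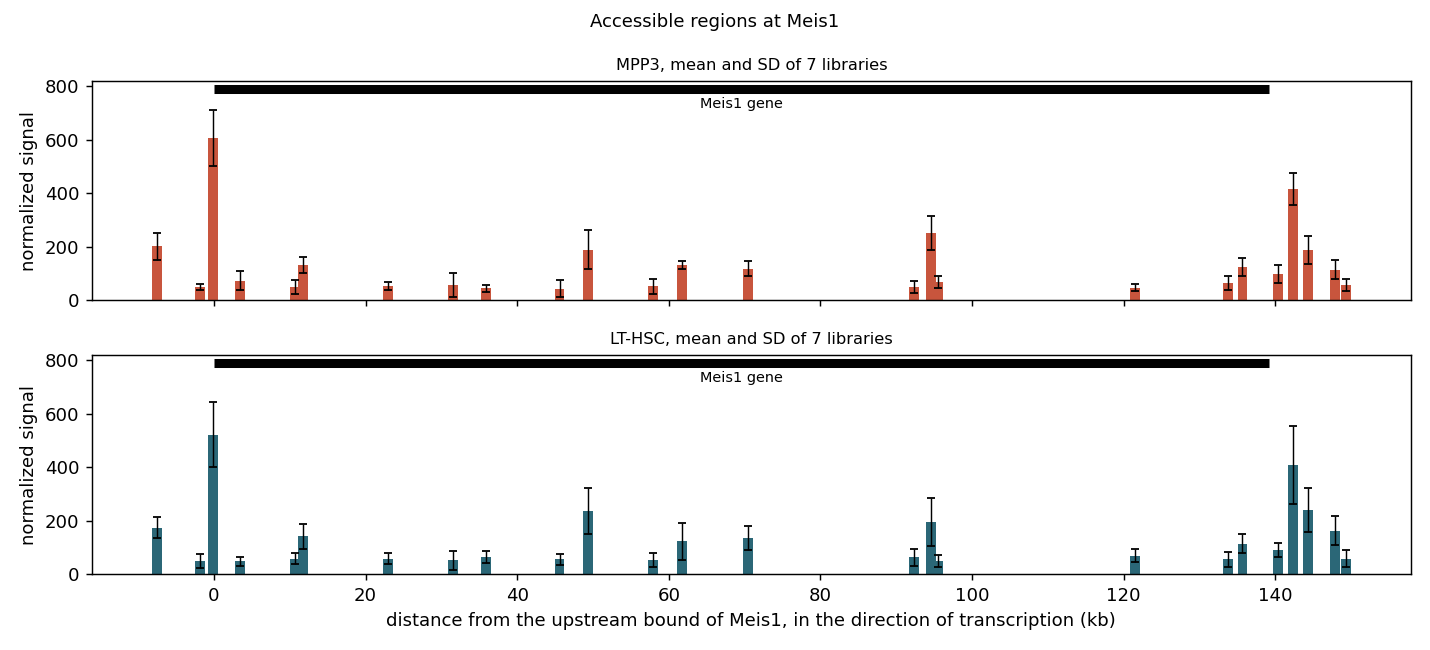
Mean normalized signal of the 25 member regions of the Meis1 window in MPP3 (top) and LT-HSC (bottom), against distance in kb from the upstream bound of the gene in its direction of transcription. Bars are drawn at a fixed width and whiskers are SD over 7 libraries. The promoter bar is the tallest in both, at 607 and 522.

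The other genotype comparisons called no member. In MPP3, neither Dnmt3a, Npm1 nor Dnmt3a;Npm1 had a member called against WT (limma, 0 of 51 each, 0% of tested regions), with 5, 0 and 0 at an unadjusted p under 0.05, against 10.1%, 0.115% and 0.478% of tested regions. In LT-HSC, Dnmt3a and Dnmt3a;Npm1 had 0 of 51 called (0% and 0.00338% of tested regions, the second being 0.00169% higher and 0.00169% lower), with 0 and 3 at an unadjusted p under 0.05, against 1.83% and 7.15%. Carriers of either mutation against non-carriers and the 3 tests of a mutant effect between cell types also called 0 of 51 (0% of tested regions). Among those, 2 members had an unadjusted p under 0.05 for Npm1 carriers, 2 for Dnmt3a carriers, and 5, 1 and 0 for the effects of Npm1, Dnmt3a and Dnmt3a;Npm1, against 4.55%, 3.25%, 11.1%, 4.71% and 2.05% of tested regions.

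The members of smallest p for Dnmt3a and for both mutations are given with their values. At Egfl8, a gene of an EGF-like protein in the Pbx2 window (chr17:34613606-34614915), Dnmt3a libraries had 115 and 116 in MPP3, and WT had 64.5 and 22.3, a difference of 1.49 (SE 0.63, limma adjusted p 0.442). Both Dnmt3a libraries lay above both WT libraries, but the share of tested regions where this held was not computed. In LT-HSC the lone Dnmt3a library had 25.4, against 55.0 and 89.3 in WT, and the effects of the cell types differed by 2.83 (SE 1.00, adjusted p 0.947 in limma).

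In 8430419K02Rik in the Meis1 window (chr11:18870114-18870631) the Dnmt3a;Npm1 libraries of LT-HSC had 67.0 and 1.75, against 87.5 and 85.2 in WT. The difference of -2.16 (SE 0.87, limma adjusted p 0.631) rests on the second library, and was -3.98 (adjusted p 0.0267) without Dnmt3a;Npm1 A and -0.35 (1.00) without Dnmt3a;Npm1 B, the ends of its range over 24 alternatives. For Npm1 carriers against non-carriers it was -1.14 (SE 0.48, limma adjusted p 0.941). An intergenic region 20810 bp from Pbx3 (chr2:34149205-34150647) had 106 and 201 in LT-HSC Npm1, against 47.5 and 2.01 in LT-HSC WT. Its mean deposited value was 52.1 over all libraries and 46.9 without those of LT-HSC Npm1, so it reached the minimum only through the group where it is high. The difference of 3.10 (SE 1.03, limma adjusted p 0.0723) missed the threshold and is a description. The value of 2.01 stands for a deposited 2, the lowest value in that library.

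Other genes of the pathway were counted in the same fit. Of 24 regions at 8 further TALE genes, 45 at HoxA and HoxB genes, 207 at genes known as HOX or MEIS targets and 29 at genes of the menin and MLL complex, none was called between MPP3 and LT-HSC over the 4 genotypes, where medians were -0.20, -0.33, 0.08 and 0.10. For HoxA and HoxB, 8 of 45 differences were above 0. The median over all tested regions was 0.03, and their share above 0 is not given here. Neighbouring regions of a Hox cluster are not independent of each other, so this count is a description.

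Between MPP3 and LT-HSC in Npm1, where 5.82% of all tested regions were higher and 0.799% lower, the HoxA and HoxB genes had 1 region higher (Hoxb3, 1.33, SE 0.37, limma adjusted p 0.0347) and 2 lower, over Hoxa3, Hoxa5 and Hoxa6 (-1.51, SE 0.36, 0.0193) and at Hoxa3 (-1.82, SE 0.50, 0.0338). At the further TALE genes 1 of 24 was higher, at Pbx4 (1.40, SE 0.39, limma adjusted p 0.0368). Of the 207 target regions, 12 were higher (5.8%, the share found over all tested regions) and 1 lower. Those of smallest p were at Mef2c (2.08), a transcription factor, Cdk6 (2.47), a cell cycle kinase, and Angpt1 (2.15), a ligand of the Tie2 receptor. The lower one was at Flt3 (-2.00), a cytokine receptor gene, where another region was higher (1.50). The menin and MLL list had 4 of 29 higher (13.8%), at Mllt10 (1.49), Psip1 (1.50), Kmt2a (1.18) and Mllt3 (1.17). Of all tested regions within 1 kb of a coding gene end, 15.2% were higher in this comparison.

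Against WT in LT-HSC, Npm1 libraries were lower at 1 TALE region (Pbx4, -1.38), 1 Hox region (Hoxb3, -1.47, SE 0.37, limma adjusted p 0.0272), 5 target regions and 5 menin and MLL regions, with none higher. Among these were Mef2c (-2.20), Camk2d (-1.52), a calcium-dependent kinase, and Flt3 (-1.73), and Men1 (-1.62, SE 0.37, limma adjusted p 0.019), the gene of menin. The called shares of the TALE, Hox, target and menin and MLL lists were 4.17%, 2.22%, 2.42% and 17.2%. Of all tested regions 4.52% were lower and 1.4% higher, and of those within 1 kb of a coding gene end 11.4% were lower. The list medians, 0.22, -0.32, -0.16 and -0.64, stand beside 0.01 over the table. The median over all tested gene-end regions, given above, was also below 0. How many regions of each list lie near gene ends was not counted.

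These list calls depended on the scaling, in alternatives applied to the lists after the data were seen. With the share of signal in tested regions as a covariate, 0 regions of any of the 4 lists were called in either Npm1 comparison. With cyclic loess 0 were called for Npm1 minus WT in LT-HSC, and for MPP3 minus LT-HSC in Npm1 there were 1 target region higher and 1 Hox region lower. Without MPP3 Npm1 B no tested region was called for MPP3 minus LT-HSC in Npm1, so the list calls were lost there too. Scaled to the library total, 36 of 207 target regions (17.4%) were higher in MPP3 Npm1 than in LT-HSC Npm1. So were 8 of 29 menin and MLL regions (27.6%). In LT-HSC, 23 (11.1%) and 9 (31%) were lower in Npm1 than in WT. Of all 59189 tested regions, this scaling called 9911 higher in the first comparison. In the second it called 8905, of which 464 were higher. The list counts are to be read against these. The median of the menin and MLL list changed sign with loess, to -0.12 and 0.08 in these comparisons. With library totals the TALE median became 0.13 and -0.37 and that of Hox 0.27 and -0.92, so 3 of these 4 signs turned too. Pearson's r of a region with the share of signal over the 14 libraries had medians of -0.08 for the further TALE genes, -0.10 for HoxA and HoxB, 0.11 for the targets and 0.33 for menin and MLL, beside 0.01 over all tested regions, and the part of the share in these calls was not tested.

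The lead regions were also compared with each other over libraries. Pearson's r over the 14 libraries was 0.62 for Pbx3 with Pknox1, 0.50 for Pbx2 with Pknox1, 0.44 for Meis1 with Pbx3, 0.35 for Meis1 with Pknox1, 0.33 for Meis1 with Pbx2 and 0.02 for Pbx2 with Pbx3. Among 15461 genes, each by its strongest region, the most like Meis1 were Supv3l1 (r 0.91), Lrrc20 (0.90) and a region shared by A430057M04Rik and Comtd1 (0.88), where the median over genes was 0.36. Pbx2 was most like Rragb (0.94), Ddah2 (0.88) and Vipr2 (0.87), with a median of 0.28. Pbx3 was most like Rnh1 (0.96), Vkorc1 (0.96) and Prcc (0.95), with a median of 0.52. Pknox1 was most like C2cd2 (0.98), Anapc5 (0.98) and Rfx3 (0.97), with a median of 0.59. The values between lead regions given above are to be read beside these medians. Over 0.9 there was 1 gene for Meis1, 1 for Pbx2, 109 for Pbx3 and 419 for Pknox1. The points share libraries and depth, so these are descriptions.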

How the data were processed

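Bone marrow libraries of ATAC-seq were deposited as 1 table with a signal value for each of 705361 regions in 14 libraries. The build is mm10, and the tools are HOMER 4.10, DiffBind 2.12.0, R 3.6.0 and edgeR 3.26.4, per the submitters' processing notes. Which aligner, peak caller and scale factors were used is not given in the sources used here. Deposited signal is whole-numbered but scaled by the authors, so it is no raw count. In 8 libraries all low values lay on multiples of a step of 1.10 to 2.62, which puts 7330000 to 18300000 reads in regions, and in the other 6 the depth is unknown. In those 8, a member value rests on 1 to 1440 reads, with medians per gene of 51 to 80.5. No count test was therefore run.

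Groups were taken from the labels. Regions with a mean of at least 50 were kept, divided by TMM factors (0.506 to 1.89) and fitted as log2(value + 4) with limma 3.58.1 (robust, trended prior) in R 4.3.3, with 8 group means and 16 comparisons. A lone library was taken to vary as the other groups do. The pseudocount makes a log2 difference understate changes of weak regions. P-values are two-sided and adjusted (Benjamini-Hochberg) within a comparison. Gene bounds came from a RefSeq table without exons, so introns and UTRs were not resolved, and the files do not say whether region names count from 0 or 1. Regions named are the strongest own region of each gene, own regions called in any comparison and the member of smallest p per family of comparisons. The families are cell type, Npm1, Dnmt3a and both mutations. Other called members were also named, as were the Meis1 region of second highest signal, 1 further own region and the intergenic region near Pbx3. These additions were chosen after their values were seen. From each list up to 4 called regions were named per comparison, and 1 gene of a list is not reported here. The members, lists and tests were chosen with earlier results of these data known. Letters A and B do not pair the libraries by the labels. Alternatives were other scalings, minimum means, pseudocounts, a covariate, a replicate block, fits on the compared groups alone and leaving out each library.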

Additional observations from a re-analysis of the deposited data

How the results depend on the processing

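The counts of members called were 1 for MPP3 minus LT-HSC over the 4 genotypes and 3 for MPP3 minus LT-HSC in Npm1. They were 2 for Npm1 minus WT in LT-HSC and 0 for Dnmt3a;Npm1 minus WT in LT-HSC. The member behind the first count reached the minimum only through MPP3, so that count is a description. The counts for the Npm1 comparisons were 8 and 8 with scaling to the library total, 0 and 0 with cyclic loess, 0 and 0 with no minimum mean, 0 and 0 with the share of signal in tested regions as a covariate (which also made the first count 0), and 10 and 1 with only the groups compared. For Npm1 minus WT in LT-HSC the count was 0 with a minimum mean of 100 and 4 with a pseudocount of 16. These 2 settings called 1219 and 4061 of all regions tested there. In the Npm1 comparisons, fits on only the groups compared called 15298 and 2571 of all regions. No minimum mean gave 64 and 503, and the covariate 0 and 0. The member counts are to be read against these. Over all tested regions, loess left 148 and 112 called, of which 36 and 92 were higher, against 3918 (3445 higher) and 3501 (828 higher) with TMM. Library totals gave 10083 and 8905. The region at Rnf5 and Agpat1 reversed with loess, to -0.14 and 0.14. The cause of these shifts was not tested.

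Leaving out 1 library gave 0 to 1, 0 to 4, 0 to 5 and 0 to 1 members for these comparisons. The first was 0 without MPP3 WT A or B or MPP3 Npm1 A or B. The second was 0 without LT-HSC Npm1 B or MPP3 Npm1 A or B. The third was 0 without LT-HSC WT A or B or LT-HSC Npm1 B, 1 without MPP3 Npm1 A or B, and 5 and 4 without MPP3 Dnmt3a A and B, which are in neither group compared. The fourth was 1 without LT-HSC Dnmt3a;Npm1 A. Leaving out a lone library removes its group, so such comparisons have no value there. The replicate block changed no member call, and the region between Ppt2 and Fkbpl was 1.85 with the replicate block (limma adjusted p 0.0225). Correlations of the deviations of same-letter libraries over 15 pairs of groups ran from -0.30 to 0.43, with a median of -0.02 and 1 above 0.1. No pairing common to all groups was seen. This cannot exclude that some groups share animals, which the labels do not give. Of all the values tried, 358 counts kept within 1.5 times the reported one and 28 did not. The 358 include comparisons with no member called, where a count of 0 had little room to move. Nearly all counts that moved were in the comparisons with a call. Of single regions 801 kept their side of the threshold, 41 lost their call, 2 gained one and 2 reversed.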
